A study of Mus musculus with 4 samples.

Results

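Serpins, apolipoproteins and fibrinogens were followed through the gene lists of 4 single-cell RNA sequencing libraries of fetal mouse pancreas. The members were chosen by symbol, with the listings of these libraries already known: the lettered serpin genes, the apolipoprotein genes of the letters a, b, c, e, f, h, l, m, n and o, and the fibrinogen chains Fga, Fgb and Fgg. The annotation holds 96 genes with such symbols, and 75 of them were on at least 1 complete list, out of 29652 genes on any complete list. The pattern also takes Apobr, a lipoprotein receptor, Apoo and Apool, which are proteins of the mitochondrial inner membrane, and the apolipoprotein L genes. It leaves out Apod, a lipocalin that also travels in plasma, which was on all 3 complete lists.

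Each library came from EpCAM-labelled cells purified by flow cytometry, from embryos of the C57BL/6 background. All 4 groups carried Setd2 f/f, the allele of the H3 lysine 36 methyltransferase gene that Cre recombinase can delete. The WT groups at E13.5 and E15.5 had Setd2 f/f alone. The KO groups at E13.5 and E15.5 had Setd2 f/f with Pdx-Cre, a recombinase that acts in cells with Pdx1 promoter activity and leaves Setd2 in place elsewhere. There was 1 library per group, with no replicate check, and no source used here gives the number of embryos behind a library.

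The files hold no counts: a gene is listed or not listed, the depth is unknown, and no level, error or p-value could be given. A listed gene may have had a single read or very many, and a gene that is not listed may have been missed. The list lengths were 25463 genes for E13.5 WT, 26341 for E13.5 KO and 25474 for E15.5 KO. The E15.5 WT list ends after 167 complete lines. Setd2 was itself on all 3 complete lists and lies past the end of the fourth, and since a listing has no level this does not check the genotypes. The 12 pancreatic epithelium markers, Epcam, Pdx1, Ptf1a and Ins2 among them, were on all 3 complete lists. So were 19 of 20 hepatocyte enzymes and transcription factors, among them Hnf4a, Foxa3, Cps1 and Tat. The exception was Pck1, which both E13.5 lists held and the E15.5 KO list did not. Of all annotated protein-coding genes, 72.8% were on all 3 complete lists. The part of liver cells or their free RNA in the listings of plasma proteins was not tested.

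Serpins are protease inhibitors that offer a flexible reactive centre loop as bait: the protease cuts the loop and is trapped by the change of shape that follows. The residues of this loop decide which protease is caught, and copies of a serpin gene in the mouse differ most there. Hepatocytes secrete many serpins, the fibrinogen chains and most apolipoproteins, the protein coats of the particles that carry lipids in blood. The clade B serpins stay inside cells. In the fetus the liver and the pancreas arise next to each other from foregut endoderm.

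Serpina3 is the gene group on which the lists differed most often by count, and its loop shows how far its copies have diverged. The coding stretch below starts at the hinge codons of the loop and runs for 72 bases, 5′ to 3′ on the coding strand, from the GENCODE M21 transcripts on GRCm38. Capitals mark the bases that differ from Serpina3n, compared position by position without gaps.
Serpina3a: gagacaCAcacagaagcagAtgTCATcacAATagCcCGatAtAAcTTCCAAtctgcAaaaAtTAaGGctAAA
Serpina3b: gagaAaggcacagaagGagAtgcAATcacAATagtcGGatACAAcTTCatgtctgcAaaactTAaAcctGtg
Serpina3c: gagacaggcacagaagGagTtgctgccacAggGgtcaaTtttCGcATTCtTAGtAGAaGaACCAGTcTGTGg
Serpina3f: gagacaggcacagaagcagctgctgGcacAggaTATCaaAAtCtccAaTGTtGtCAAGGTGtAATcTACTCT
Serpina3g: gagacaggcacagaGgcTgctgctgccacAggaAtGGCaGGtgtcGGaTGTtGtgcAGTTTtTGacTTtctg
Serpina3i: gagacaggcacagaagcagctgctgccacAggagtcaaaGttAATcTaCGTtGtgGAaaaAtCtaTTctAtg
Serpina3j: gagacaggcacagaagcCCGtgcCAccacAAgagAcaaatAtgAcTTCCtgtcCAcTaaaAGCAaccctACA
Serpina3k: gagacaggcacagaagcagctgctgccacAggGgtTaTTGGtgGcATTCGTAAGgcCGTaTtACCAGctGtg
Serpina3m: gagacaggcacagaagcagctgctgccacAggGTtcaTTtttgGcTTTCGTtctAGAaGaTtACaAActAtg
Serpina3n: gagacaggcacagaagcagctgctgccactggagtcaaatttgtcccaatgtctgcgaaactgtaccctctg
The hinge at the start of the stretch was nearly the same in each copy, and the differences gathered after it. Serpina3i differed from Serpina3n at 17 of the 72 bases, the fewest, and Serpina3a at 31, the most. The stretch of Serpina3n lies at chr12:104413442-104413513 on the plus strand. Serpina3h, the eleventh copy by symbol, is annotated as a transcribed pseudogene and has no coding sequence.

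The 5 alpha-1-antitrypsin copies, Serpina1a to Serpina1e, are much closer to each other in the same stretch. Capitals here mark the bases that differ from Serpina1a.
Serpina1a: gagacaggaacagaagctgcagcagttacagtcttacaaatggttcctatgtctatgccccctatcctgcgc
Serpina1b: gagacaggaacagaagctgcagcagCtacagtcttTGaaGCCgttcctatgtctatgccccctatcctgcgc
Serpina1c: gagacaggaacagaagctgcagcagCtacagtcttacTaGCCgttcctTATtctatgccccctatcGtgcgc
Serpina1d: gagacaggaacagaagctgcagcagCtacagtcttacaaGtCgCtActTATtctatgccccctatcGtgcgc
Serpina1e: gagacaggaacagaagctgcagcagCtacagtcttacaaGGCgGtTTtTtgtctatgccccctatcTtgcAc
They differed from Serpina1a at 6 to 10 of the 72 bases. The stretch of Serpina1a lies at chr12:103853765-103853836 on the minus strand.

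Of the 96 members, 54 were on all 3 complete lists, 5 on 2 lists, 16 on 1 list and 21 on none. The members on no list were 21.9% of the 96, close to the 18.5% of all annotated protein-coding genes. E13.5 WT held 69 members, E13.5 KO 63 and E15.5 KO 56. The order of the member counts was not that of the list lengths, since the E13.5 KO list is the longest. Of all 22028 annotated protein-coding genes, 77.7% were on the E13.5 WT list, 77.9% on the E13.5 KO list and 75.9% on the E15.5 KO list. For the members the shares were 71.9%, 65.6% and 58.3%.

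Most liver plasma proteins were listed in each library. Of the 30 liver plasma proteins, 26 (86.7%) were on all 3 complete lists, against 28 of 55 other members (50.9%) and 0 of 11 Serpina3 copies. The share over all annotated protein-coding genes was 72.8%. E13.5 WT held 29 of the 30 plasma proteins, E13.5 KO 27 and E15.5 KO 26. The 4 that were not on all lists were Apoa4, Apoc4, Apoc2 and Serpina11. The plasma proteins were classed by where they are known to be made and the Serpina3 copies by name, both with earlier results of these data known, and no test between the classes was run. The contrast depends on the classes: with the Serpina3 copies, some of which the liver also secretes, counted as plasma proteins, 63.4% of that class were on all 3 lists. Without the genes of the lettered copy groups (Serpina1, Serpina3, Serpinb3, Serpinb6, Serpinb9, Apol7, Apol9, Apol10 and Apol11), the shares were 84% for plasma proteins and 78.6% for other members. Serpinb1a, Serpinb1b and Serpinb1c, which are 86.1% to 89.8% identical, were kept there and were on all 3 lists. The share for other members thus depends on which copy groups were left out.

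**Figure D1:**
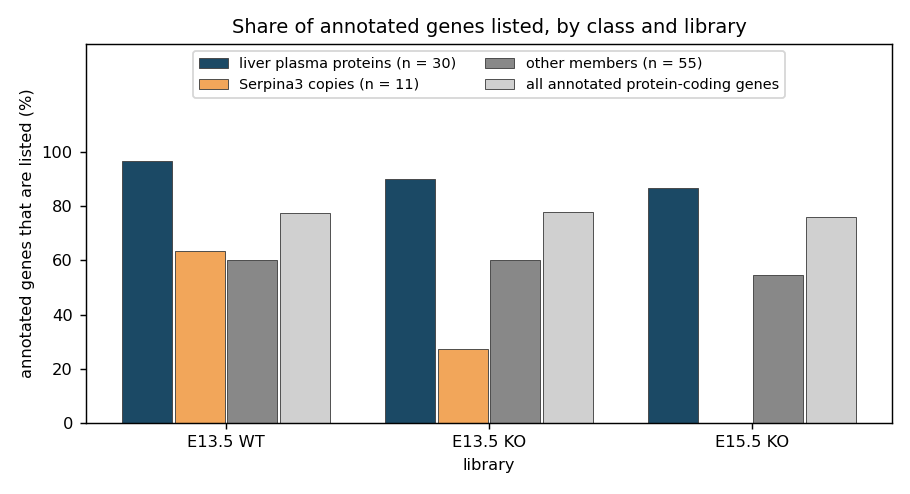
Share of annotated genes that are listed (y axis, %) in each complete library (x axis), for liver plasma proteins, Serpina3 copies, other members and all annotated protein-coding genes; 1 library per bar group, so there are no error bars. The plasma proteins stand between 86.7% and 96.7% in each library, while the Serpina3 copies stand at 0% in E15.5 KO, 27.3% in E13.5 KO and 63.6% in E13.5 WT.

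Fibrinogen was complete. Fga, Fgb and Fgg, the chains that thrombin turns into the fibrin of a clot, lie side by side on chromosome 3 (chr3:83007724-83049863), and each was on all 3 complete lists. The serpins that control clotting and its removal were complete as well. Serpinc1 (antithrombin), Serpind1 (heparin cofactor), Serpina10, which inhibits activated clotting factor X with protein Z, and Serpinf2 (antiplasmin) were on all 3 lists. Serping1, the inhibitor of the first complement proteases, was on all 3 too.

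The listing of the carriers and the antitrypsins was the same in the 3 complete libraries. Serpina6, which carries corticosteroids in blood, and Serpina7, which carries thyroid hormone, were on all 3 complete lists. All 5 alpha-1-antitrypsin copies were on all 3. These 5 share sequence: of all 150-base windows of the Serpina1c transcripts, 50.5% also occur in a transcript of another gene, and of Serpina1e 7.36%. The labels give reads of 150 bases, so the listing of a single antitrypsin copy is uncertain. Serpina11 (chr12:103980243-103989957), a serpin of the liver, was on both E13.5 lists and not on the E15.5 KO list. An overlapping transcript, Gm28577, covers 40.8% of its exon bases on the same strand, and Gm28577 was on no complete list.

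The share of all annotated protein-coding genes on all 3 complete lists was 72.8%. Close to it, 11 of 14 circulating apolipoproteins (78.6%) were on all 3. They were Apoa1 and Apoa2, the main proteins of high-density lipoprotein, Apoa5, Apob, the scaffold of the particles that carry triglycerides, Apoc1, Apoc3, which inhibits lipoprotein lipase, Apoe, the ligand of lipoprotein receptors, Apof, Apoh, Apom, the carrier of sphingosine phosphate, and Apon. Apoa4 (chr9:46240696-46243459), an apolipoprotein of gut and liver, was on the E13.5 WT list and on neither KO list. Its neighbours Apoa1, Apoc3 and Apoa5 on chromosome 9 were on all 3. Apoa4 shared no 150-base window with any other gene.

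Apoc4 (chr7:19678083-19681479) had the same pattern as Apoa4: it was on the E13.5 WT list and on neither KO list. It sits in a row with Apoe, Apoc1 and Apoc2 on chromosome 7. Apoe and Apoc1 were on all 3 complete lists. Apoc2 (chr7:19671579-19677941), the cofactor that switches on lipoprotein lipase, was on none. The annotation places a further coding gene, Gm44805, across Apoc4 and Apoc2 on the same strand. It covers 79.5% of the exon bases of Apoc2 and 4.69% of those of Apoc4, and it was on no complete list. The part of this overlap in the missing Apoc2 was not tested.

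No Serpina3 copy was on all 3 complete lists. The group stems from 1 ancestral antichymotrypsin gene, and its human counterpart is a single inhibitor of chymotrypsin-like proteases that rises in inflammation. E13.5 WT held 7 of 11 copies: Serpina3a, Serpina3f, Serpina3g, Serpina3i, Serpina3j, Serpina3m and Serpina3n. E13.5 KO held 3: Serpina3b, Serpina3f and Serpina3g. E15.5 KO held 0 of 11. The shares were 63.6%, 27.3% and 0%, against 77.7%, 77.9% and 75.9% of all annotated protein-coding genes. The group was set out by name with earlier results of these data known, and nothing is read from these gaps. Serpina3f and Serpina3g were thus the copies found in both E13.5 libraries. Serpina3c, Serpina3h and Serpina3k were on no complete list.

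Serpina3n (ENSMUSG00000021091, chr12:104406729-104414329), a secreted inhibitor known from reactive astrocytes and the acute phase response, was on the E13.5 WT list and on neither KO list. Serpina3m (chr12:104338486-104394257) had the same pattern. Serpina3b (chr12:104127996-104139545) was the 1 copy on the E13.5 KO list and not on the E13.5 WT list.

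The Serpina3 copies are less alike than their shared name implies. Over the whole coding sequence, pairs of copies other than Serpina3g, whose longest annotated coding sequence here is 744 bases, were 69.5% to 91.0% identical, with a median of 78.5% over 36 pairs. The closest pair was Serpina3k and Serpina3m (91.0%). The alpha-1-antitrypsin copies were 91.4% to 96.7% identical over 10 pairs. The transcripts of Serpina3k and Serpina3m shared 5 windows of 150 bases, and the other 9 Serpina3 copies shared none with any gene. Serpina3k and Serpina3m also overlap in the annotation on the same strand. The overlap covers 2.92% of the exon bases of Serpina3k and 3.49% of those of Serpina3m. At a window of 75 bases the highest share among the copies was 11%, for Serpina3h, and Serpina3m stood at 9.65%. How the authors assigned reads to copies is not known here, so the listing of a single Serpina3 copy is uncertain.

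**Figure D2:**
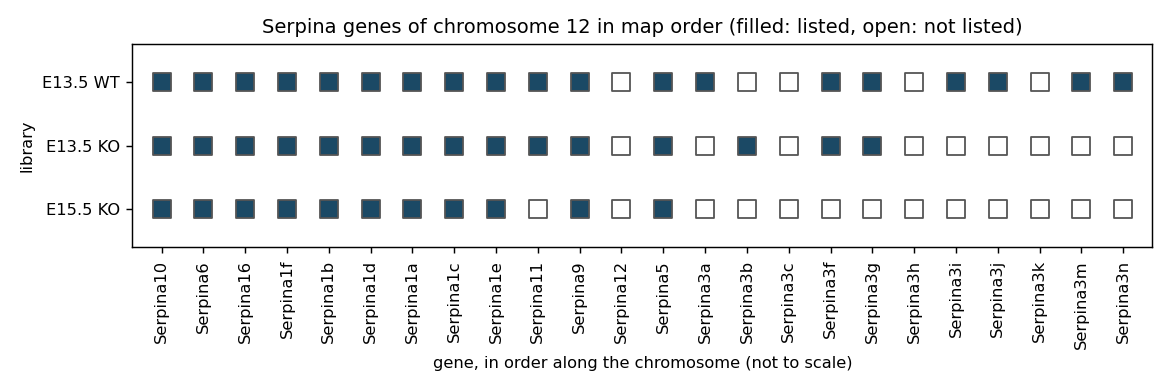
The 24 Serpina genes of chromosome 12 in map order (x axis, not to scale) against the 3 complete libraries (y axis); a filled square is a listed gene and an open square a gene that is not listed. The left side, from Serpina10 to Serpina5, is filled in each library except for Serpina12 and, in E15.5 KO, Serpina11, while the Serpina3 copies on the right are open in E15.5 KO.

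Within this cluster the listing differed between its left side and the Serpina3 copies on its right. These are the copies counted above, so the contrast of sides is no separate result. The 24 Serpina genes span chr12:103614786-104414329, and 19 of them were on the E13.5 WT list, 15 on that of E13.5 KO and 11 on that of E15.5 KO. Of all annotated protein-coding genes, 77.7%, 77.9% and 75.9% were on these lists. The 13 genes from Serpina10 to Serpina5 included the 11 on all 3 complete lists. Among those 11 were Serpina1f, Serpina9, Serpina16 and Serpina5, serpins known mainly outside the liver, such as Serpina5, the protein C inhibitor, which in the mouse is made in the reproductive tract. Serpina12 (vaspin, an adipose serpin) was on none.

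Serpins secreted by other tissues were mostly on all lists. Serpine2 (protease nexin), Serpinf1 (pigment epithelium-derived factor), Serpini1 (neuroserpin) and Serpini2 were on all 3 complete lists, as was Serpinh1, the collagen chaperone of the endoplasmic reticulum. Serpini2 is known from the exocrine pancreas. Serpine3 (chr14:62663667-62692243) was on the E13.5 KO list and on neither other complete list. The E15.5 WT list covers 2 members, Serpinf1 and Apoh, and both were on it and on the other 3 lists. In the covered stretch 4.65% of the 172 genes on either E15.5 list were on 1 list only.

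The intracellular clade B serpins were the largest group of members and the most incomplete by count of absent genes. Of 27 annotated genes, 10 were on all 3 complete lists, 1 on 2 lists, 4 on 1 list and 12 on none. The genes on none were 44.4% of this group, against 18.5% of all annotated protein-coding genes. The members were chosen with these lists known, and nothing is read from this gap. The 10 were Serpinb1a, Serpinb1b and Serpinb1c, of which Serpinb1a inhibits neutrophil elastase, Serpinb5 (maspin), Serpinb6a and Serpinb6b, Serpinb8, Serpinb9, an inhibitor of granzyme B, Serpinb10, which the annotation marks as a polymorphic pseudogene, and Serpinb12. Serpinb7 was on both E13.5 lists and not on the E15.5 KO list. Serpinb2 (a serpin of macrophages and placenta) and Serpinb9b were on the E13.5 WT list alone, Serpinb6c on the E13.5 KO list alone and Serpinb11 on the E15.5 KO list alone. Serpinb2 shares 12.4% of its exon bases with Serpinb10 on the same strand.

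The 12 clade B genes on no list lie in 2 rows of neighbouring serpins. On chromosome 1 they were Serpinb3a, Serpinb3b, Serpinb3c, Serpinb3d and Serpinb13, serpins of skin and other squamous epithelia. On chromosome 13 they were Serpinb6d, Serpinb6e and Serpinb9c, Serpinb9d, Serpinb9e, Serpinb9f and Serpinb9g. Serpinb9f and Serpinb9g were 98.7% identical in coding sequence, and 38.6% and 30.9% of their 150-base windows occur in another gene. Serpinb3b, Serpinb3c, Serpinb3d, Serpinb13, Serpinb6d and Serpinb6e shared no such window.

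Apolipoprotein L genes, whose products act inside cells, split in the same way. Of 13 genes, 5 were on all 3 complete lists: Apol6, Apol7a, Apol7d, Apol8 and Apol9b. The gene listed as Apol7d is annotated as an antisense transcript on chromosome 1, away from the Apol row on chromosome 15, so its listing is no evidence of an apolipoprotein L. Apol9a was on the E13.5 WT and E15.5 KO lists and not on the E13.5 KO list, while Apol9b was on all. Apol9a and Apol9b are 98.5% identical in coding sequence, and 22.5% of the 150-base windows of Apol9b occur in another gene, so the listing of each copy is uncertain. Apol11a and Apol11b, 93.5% identical, were both on the E13.5 KO list alone, and Apol7c on the E13.5 WT list alone. Apol7b, Apol7e, Apol10a and Apol10b were on no complete list, and Apol7b and Apol7e were 98.9% identical. The Apol genes on no list were 30.8% of the 13, against 18.5% of all annotated protein-coding genes. Apobr, Apoo and Apool were on all 3 lists.

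**Figure D3:**
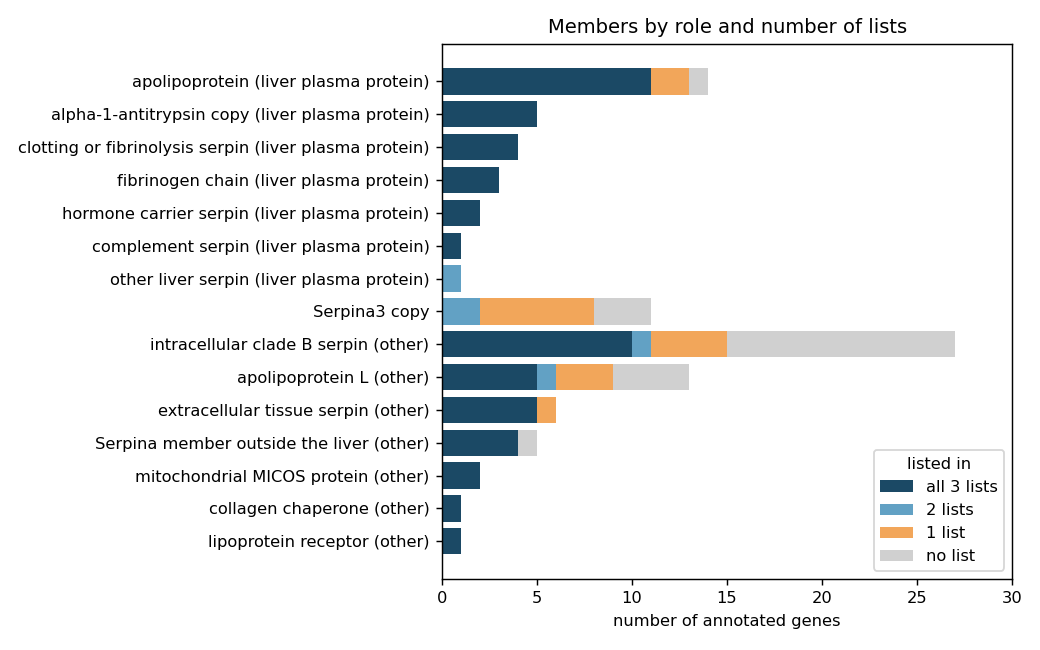
Number of annotated genes (x axis) in each role (y axis, class in brackets), coloured by how many of the 3 complete lists hold the gene. Fibrinogens, antitrypsins, clotting serpins and hormone carriers are on all 3 lists, the 11 Serpina3 copies have none on all 3, and 12 of the 27 clade B serpins are on no list.

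The comparison of the E13.5 libraries asks which members differ between Setd2 genotypes at the same age. Of the 74 members on either list, 58 were on both. E13.5 WT alone held 11 (14.9%): Apoa4, Apoc4, Serpina3a, Serpina3i, Serpina3j, Serpina3m, Serpina3n, Serpinb2, Serpinb9b, Apol7c and Apol9a. E13.5 KO alone held 5 (6.76%): Serpina3b, Serpinb6c, Serpine3, Apol11a and Apol11b. Over protein-coding genes on either list, 2.91% were on the WT list only and 3.17% on the KO list only, or 6.08% in all. Over all genes the shares were 6.61% and 9.72%, or 16.3%. The members were chosen with these lists known and 6 of the 16 that differed are Serpina3 copies, so nothing is read from the gap to the background. Genotype and library coincide, and the cause of each difference cannot be told apart.

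The comparison of the KO libraries asks how the members differ with age. Of the 65 members on either KO list, 54 were on both. The E13.5 KO list alone held 9 (13.8%): Serpina3b, Serpina3f, Serpina3g, Serpina11, Serpinb6c, Serpinb7, Serpine3, Apol11a and Apol11b. E15.5 KO alone held 2 (3.08%): Serpinb11 and Apol9a. The background over protein-coding genes was 5.03% on the E13.5 KO list only and 2.55% on the E15.5 KO list only, or 7.57% in all. Over all genes it was 10.4% and 7.37%, or 17.8%. Here too the members were chosen with the lists known, and nothing is read from these gaps. Age and library coincide, and the cause of each difference cannot be told apart. Both comparisons share the E13.5 KO library, so Serpina3b, Serpinb6c, Serpine3, Apol11a and Apol11b, which this library alone held, count in both.

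**Figure D4:**
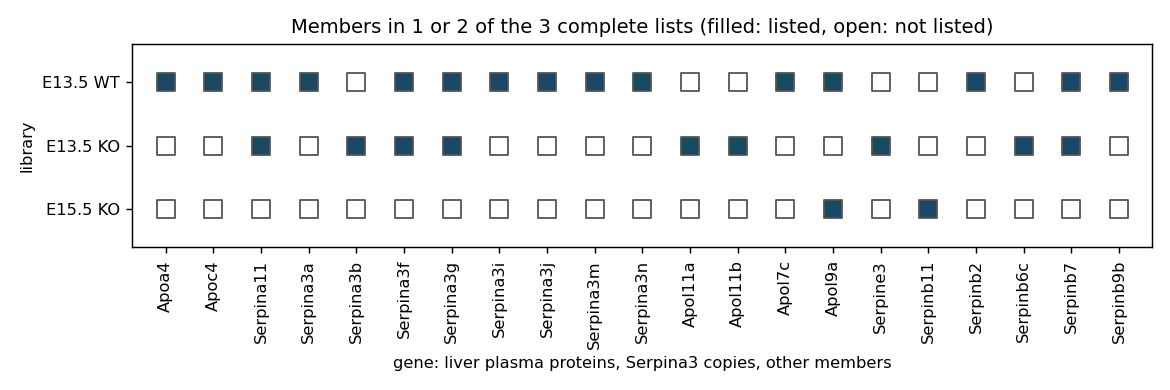
The 21 members on 1 or 2 of the 3 complete lists (x axis, ordered as liver plasma proteins, Serpina3 copies and other members) against library (y axis); filled squares are listed genes and open squares are not. In E15.5 KO, Apol9a and Serpinb11 are the filled squares, and E13.5 WT has 15 filled squares.

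Other plasma proteins of the liver were taken from a list that holds no member. Of 36 such genes, 26 (72.2%) were on all 3 complete lists, close to the 72.8% of all annotated protein-coding genes, among them Alb, Afp, Ttr, Trf, Ahsg and Rbp4. E13.5 WT held 34, E13.5 KO 32 and E15.5 KO 29. The pregnancy zone protein Pzp, the acute phase protein Saa2, the complement proteins C9 and Cfb, and A1bg were on both E13.5 lists and not on E15.5 KO. Saa4 was on E13.5 WT alone. Itih3 and the complement protein C8a were missing from E13.5 KO alone, Azgp1 was missing from E13.5 WT alone, and Hrg was on none.

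Most partners of the members were on all lists. Of 23 clotting and fibrinolysis genes, 21 (91.3%) were on all 3 complete lists, against 72.8% of all annotated protein-coding genes. F9 was missing from E15.5 KO and F11 from E13.5 KO. Thrombin (F2) and plasminogen (Plg), the targets of antithrombin and antiplasmin, were on all 3. Of 24 genes for lipoprotein assembly, lipases and receptors, 23 (95.8%) were on all 3. Among them were Lpl, Lcat and Mttp, which loads lipid onto Apob. Gpihbp1, the endothelial anchor of lipoprotein lipase, was missing from E13.5 WT. Both lists of partners were chosen with earlier results of these data known, and nothing is read from their gaps to the background.

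Among 14 proteases known as serpin targets, 10 (71.4%) were on all 3 complete lists, close to the 72.8% of all annotated protein-coding genes. Elane, the neutrophil elastase that antitrypsin inhibits, Ctsg, the cathepsin of neutrophils, and Gzmb, the granzyme that Serpinb9 inhibits, were on both E13.5 lists and not on E15.5 KO. Gzma was on none. Other proteases of blood cells, Prtn3, Cma1 and Ctss, were on all 3. Of 5 blood and vessel markers, Pecam1, Ptprc, Hbb-bt and Hba-a1 were on all 3 lists, and Cdh5 was missing from E15.5 KO. The 3 macrophage markers and the 3 mesenchyme markers were on all 3 lists. The part of other cell types in the members that E15.5 KO lacked was not tested.

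Shared sequence was more frequent, by count, among members on no list than among those on all 3. Of the 21 members on no complete list, 10 shared at least 1 window of 150 bases with another gene, and 6 of them at least 10% of their windows. Of the 16 members on 1 list, 3 shared any window, with a highest share of 5.5%, and of the 5 on 2 lists 2 did. Of the 54 on all 3 lists, 8 shared any and 6 shared at least 10%. With windows of 75 bases, 18 of the 21 members on no list shared at least 1, 11 of the 16 on 1 list, 4 of the 5 on 2 lists and 16 of the 54 on all 3. The part of shared sequence in the listing was not tested. The median exon length was 1910 bases for members on no list and 2320 for those on all 3, with ranges of 813 to 3690 and 537 to 13934, so the groups overlapped.

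**Figure D5:**
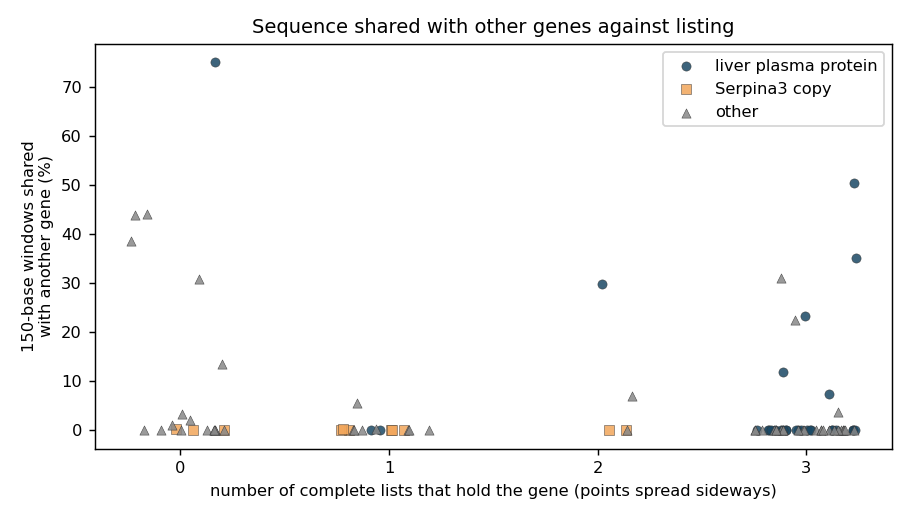
Share of a gene's 150-base transcript windows that also occur in a transcript of another gene (y axis, %) against the number of complete lists that hold it (x axis), 1 point per member, coloured by class. Apoc2 is the highest point, at 75.0% and no list, Serpina1c stands at 50.5% with 3 lists, and the Serpina3 copies lie at or below 0.331%.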

How the data were processed

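The files that the authors deposited give, without a header, the Ensembl identifier and symbol of each gene on a list, and no value beside them. Per the submitters' processing notes, Seurat and the build mm10 were used. For the aligner, the annotation release, the filters and what decides that a gene is listed, the entry is: not given in the sources used here. Sample titles gave the groups. No table of counts was analysed here.

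Members were found by symbol in the lists and in GENCODE M21 on GRCm38, and were matched to it by identifier. No member's symbol differed from the annotation. The members, classes and context lists were chosen with earlier results of these data known. Every member missing from a complete list is named, as the rule for named genes asks. Some genes counted in the groups are not reported here by name. The analysis used Python 3.11.15 with Biopython 1.88. Coding sequences, the longest per gene that starts with ATG, were aligned globally, and identity was taken over all alignment columns. Transcript windows of 150 and 75 bases were searched as exact matches in the transcripts of all other genes, on the transcript strand. Exon overlap was computed on the same strand. The counting and window steps were tested on simulated data. Comparisons are counts, since 1 library per group allows no test.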

Additional observations from a re-analysis of the deposited data

How the results depend on the processing

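No paired analysis was possible because there is 1 library in each group. Of 50 values recomputed under an alternative, 40 stayed within 1.5 times the count reported or within the exact 95% interval of the share, and 10 did not. Leaving out the lettered copies of Serpina1, Serpina3, Serpinb3, Serpinb6, Serpinb9, Apol7, Apol9, Apol10 and Apol11 by symbol, whether or not their sequences are close, kept 53 of 96 members. The lettered Serpinb1 copies were among those kept. E13.5 WT alone then held 3 members (Apoa4, Apoc4, Serpinb2) and E13.5 KO alone 1 (Serpine3). Between the KO ages, E13.5 KO alone then held 3 and E15.5 KO alone 1, and 78.6% of the other members and 84% of the plasma proteins were on all complete lists. Without Apobr, Apoo, Apool and the Apol genes, E13.5 KO alone held 3 against WT, and E15.5 KO alone 1 against E13.5 KO. With the Serpina3 copies counted as liver plasma proteins, 63.4% of that class were on all complete lists. Chosen after the data were seen, leaving out members that share a 150-base window with another gene gave 7 for E13.5 WT alone and 1 for E15.5 KO alone. Fewer genes were kept in each of these smaller counts. Matching by the annotation's symbol and keeping protein-coding members moved no count by more than 1.5 times. Depth is unknown, so a gene that is not listed may have been missed.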

Other observations

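Nearly complete exon overlap with another gene went with absence from the lists over the whole annotation, in a pattern looked for after Apoc2 was seen to be missing. Of the 218 protein-coding genes with at least 90% of their exon bases under exons of another gene on the same strand, 206 (94.5%) were on no complete list. Of the 20266 with no such overlap, 18.3% were on none, of the 1338 with above 0 to under 50% overlap 8.97%, and of the 206 with 50% to under 90% overlap 24.8%. Absence therefore did not grow evenly with overlap. Apoc2 belongs to the group of 50% to under 90%. Serpina3d-ps, Serpina3e-ps, Serpina3l-ps, Serpina4-ps1 and Apoo-ps are unprocessed or processed pseudogenes with Serpina or Apoo symbols. Apoo-ps, named after the member Apoo, was on all complete lists and the other 4 on none. Apoo shares 31.1% of its 150-base windows with other genes, in the main with Apoo-ps.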
